A study of Homo sapiens with 16 samples.

Results

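RNA levels were compared between day 2 and day 1 in the LacZ control cells of a BRD9 deletion time course. Members were chosen by their labels alone: the libraries labelled LacZ on day 2 (2 libraries) and on day 1 (2 libraries), 4 of the 16 libraries of the series. All of them come from G401, a human kidney rhabdoid tumor cell line that carries a SMARCB1 mutation. The study's general methods describe Cas9 from a blasticidin-selected lentivirus and guides from a puromycin-selected lentivirus. They do not name this time course, and the labels give no delivery or selection. The guide of the control cells is directed at LacZ of Escherichia coli, which has no counterpart in the human genome, so these cells carry the nuclease and a guide without a target of their own. BRD9 KO libraries of days 1 and 2 (4 libraries) and LacZ libraries of days 3 and 5 (4 libraries) are set beside these results where stated.

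The day from which days are counted, the time since transduction and the culture density at collection are not given in the sources used here. Day 2 and anything else that differed between the collections therefore cannot be told apart, and a single line stands for the tumor. Replicates are called biological by the study, but nothing says that they came from separate cultures, so p-values measure only the spread between these samples.

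Cells that are plated, infected or selected change their RNA as they settle and grow. Entry into the cell cycle switches on genes bound by E2F factors before DNA synthesis, and genes bound by the DREAM and MMB complexes at the CHR element before mitosis. Growing cells also make ribosomes, and the transcription factor MYC binds the E-box of many ribosome biogenesis genes. When amino acids run short, the factor ATF4 switches on amino acid synthesis, amino acid transport and tRNA charging through an amino acid response element. Immediate-early genes such as EGR1 and FOS answer serum, stress and medium change within minutes, without new protein synthesis, and then decline again.

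Promoter stretches from the gene groups that moved most uniformly are shown first, as background to these groups. Each is taken from RefSeq (GRCh38.p14), reads 5′ to 3′ in the direction of the gene, ends at or before the annotated start of transcription, and carries the motif in capitals. Members shown are, in each group, the 2 with the smallest p among the called members whose first match lies before the start, and were thus chosen after their values were seen.
PCNA, an S phase gene, E2F motif on chr20:5126634-5126721, minus strand: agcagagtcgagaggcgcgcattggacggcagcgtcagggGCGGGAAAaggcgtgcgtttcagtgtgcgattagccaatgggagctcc
UHRF1, an S phase gene, E2F motif on chr19:4909447-4909500, plus strand: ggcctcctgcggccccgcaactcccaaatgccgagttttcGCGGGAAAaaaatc
ECT2, a mitosis gene, CHR motif on chr3:172750571-172750656, plus strand: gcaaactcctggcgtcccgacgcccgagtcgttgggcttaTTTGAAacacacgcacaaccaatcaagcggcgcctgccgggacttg
NCAPG, a mitosis gene, CHR motif on chr4:17810904-17810978, plus strand: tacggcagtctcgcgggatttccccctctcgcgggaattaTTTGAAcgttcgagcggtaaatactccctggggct
EBNA1BP2, a ribosome biogenesis gene, E-box on chr1:43172762-43172820, minus strand: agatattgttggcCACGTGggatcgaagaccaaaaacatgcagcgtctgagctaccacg
UTP20, a ribosome biogenesis gene, E-box on chr12:101280055-101280104, plus strand: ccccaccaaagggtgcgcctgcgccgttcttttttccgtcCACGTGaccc
IARS, an aminoacyl tRNA synthetase gene, amino acid response element on chr9:92293698-92293750, minus strand: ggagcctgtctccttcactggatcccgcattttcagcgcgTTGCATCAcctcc
AARS, an aminoacyl tRNA synthetase gene, amino acid response element on chr16:70289646-70289733, minus strand: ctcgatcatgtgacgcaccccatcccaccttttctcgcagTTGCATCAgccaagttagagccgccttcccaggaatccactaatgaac

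Motifs were searched on both strands of windows of 300 bases, from 250 before to 50 after the start, which were found for 10211 of the 15027 genes tested. The E2F letters TTTCCCGC, TTTCGCGC, TTTGCCGC or TTTGGCGC were in 25 of 50 windows of S phase genes (50%), against 5.47% of all windows. The CHR letters TTTGAA were in 35 of 51 windows of G2/M and mitosis genes (68.6%), against 9.25% of all windows. The E-box letters CACGTG, which read the same on both strands, were in 19 of 49 windows of ribosome biogenesis genes (38.8%), against 10.4%. The amino acid response letters TGATGCAA were in 6 of 13 windows of aminoacyl tRNA synthetase genes (46.2%), against 0.47%, and in 1 of 28 windows of the other ATF4 genes. The letters of heat shock elements (GAANNTTC) were in 9 of 30 windows of heat shock genes (4.44% of all windows), those of the interferon-stimulated response element in 14 of 27 of interferon-stimulated genes (2.53%), CCAAT in 27 of 33 of endoplasmic reticulum genes (36.9%), ACGTG, which the E-box contains, in 16 of 25 of hypoxia genes (27.0%), and GGAATG in 5 of 15 of YAP and TEAD target genes (10.5%). Shares nearer to those of all windows were found for AP-1 (TGANTCA, 1 of 20 immediate-early windows against 4.21%), CRE (TGACGTCA, 2 of 20 against 3.38%), the sterol element (TCACNCCAC, 1 of 23 cholesterol windows, 4.35%, against 114 of all 10211 windows), the antioxidant element (TGACNNNGC, 4 of 21 against 15.1%) and the E-box in glycolysis genes (3 of 23). These shares count every list member with a window, called or not. They therefore describe how the lists are made up and are no support for a change between the days. A match describes the letters and says nothing of a factor bound in these cells.

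Each library held between 11598798 and 15430060 counts over genes in the 4 LacZ libraries of days 2 and 1, and between 9185808 and 16560669 over all 16. Within a day the spread between both libraries was 1.09 times counting noise on day 2 and 1.10 times on day 1, so small differences pass the test in abundant genes. SMARCB1 had 0 normalized CPM (counts scaled to library size and composition by TMM) in both day 2 libraries, against 0 and 0.131 CPM on day 1. BRD9 had 45.8 and 47.6 CPM on day 2, against 47.2 and 49.4 CPM on day 1, with no call (log2 fold change −0.05, SE 0.0616, adjusted p = 0.583). Only 2 of 16 epithelial markers, 2 of 11 endothelial markers and 3 of 15 blood cell markers passed the filter on low counts, and of these CD68, a lysosomal protein also made outside macrophages, alone was abundant, with 121 and 126 CPM on day 2, against 121 and 126 CPM on day 1. CDH5, KDR, CD3E and HBB were at 0 in the 4 libraries. The share of counts from mitochondrially encoded genes was 5.29% and 5.26% on day 2, against 6.37% and 6.34% on day 1. Its part in the results was not tested. In these bulk libraries fewer cells in a state and less RNA per cell cannot be told apart.

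Between day 2 and day 1, 4695 of the 15027 genes tested (31.2%) differed at an adjusted p under 0.05 in edgeR's quasi-likelihood test. Of these, 2222 were higher on day 2 (14.8% of the genes tested) and 2473 were lower (16.5%). These shares are the background against which each gene group below is read. Most differences were small: the median absolute log2 fold change of the called genes was 0.27, 2278 of them differed by under 1.2-fold, 416 by at least 1.5-fold and 114 by at least 2-fold (46 higher, 68 lower). The share called grew with abundance, at 2.53% of the genes under 1 CPM, 9.44% between 1 and 10 CPM, 38.0% between 10 and 100 CPM and 65.1% above 100 CPM. Above 100 CPM 32.7% were higher and 32.4% lower. A list of abundant genes can therefore exceed the shares over all genes through abundance alone, and the lists were not matched for it. In 9575 genes (63.7%) the libraries of the 2 days did not overlap. Such separation was thus common, and it was required of the genes named for the largest fold changes. Where given below for single genes it describes the values and is no further support. The balance of directions depended on the scaling, with 47.3% of the calls higher after TMM, 57.5% with plain library totals (2695 higher, 1994 lower) and 68.6% with limma on TPM (1777 higher, 813 lower).

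**Figure D1:**
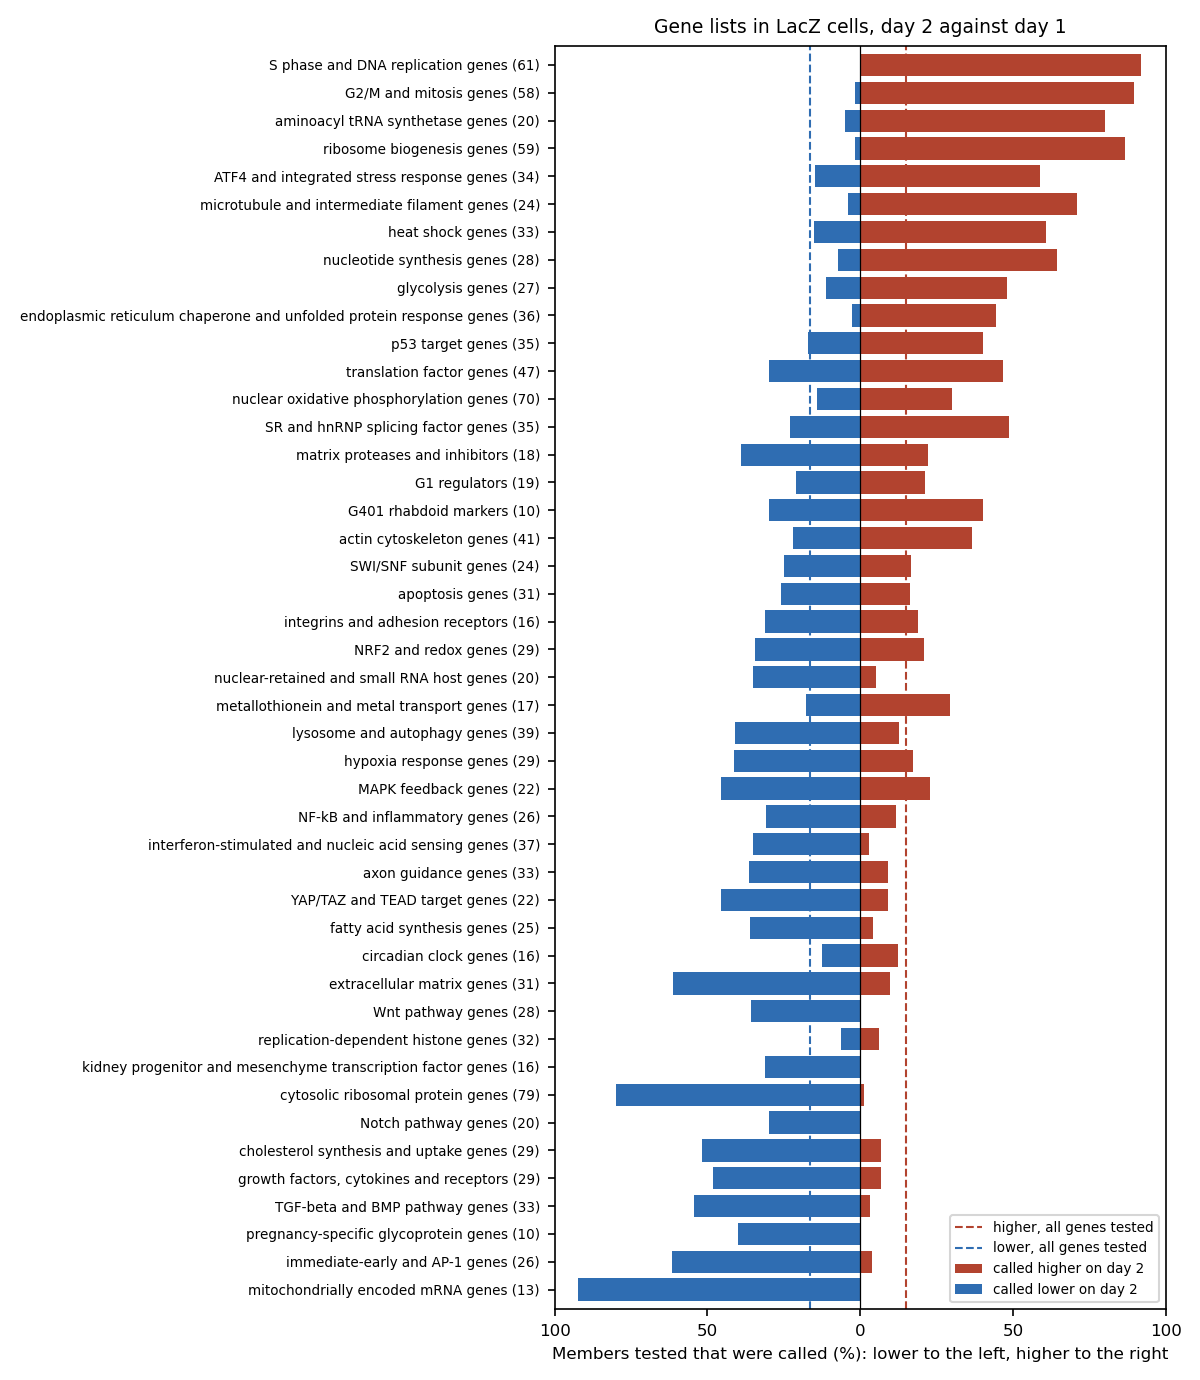
Share of the tested members of each gene list called higher (right) or lower (left) on day 2 against day 1 in LacZ cells, in percent, ordered by the median log2 fold change of the list, with the number tested in parentheses. Dashed lines give the shares over all genes tested, 14.8% higher and 16.5% lower. S phase, G2/M, ribosome biogenesis and aminoacyl tRNA synthetase genes stand at the top, and mitochondrially encoded mRNAs and immediate-early genes at the bottom.

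The cell cycle genes were the most uniformly higher group. Of 61 S phase and DNA replication genes, 56 rose on day 2 and none fell, with a median log2 fold change of 0.41 against −0.01 over all genes. Of 58 G2/M and mitosis genes, 52 rose and 1 fell, with a median of 0.32. RRM2, the inducible subunit of ribonucleotide reductase, had 240.3 and 242 CPM on day 2, against 147 and 152 CPM on day 1 (log2 fold change 0.69, SE 0.0313, adjusted p = 1.26e-11). Its partner RRM1, the large subunit, had 197 and 197 CPM on day 2, against 141 and 136 CPM on day 1 (0.51, SE 0.034). In both genes every day 2 library lay above every day 1 library. PCNA, the sliding clamp of the replication fork, had 296 and 300.3 CPM on day 2, against 198 and 198 CPM on day 1 (0.59, SE 0.0307). CDC6, which loads the replicative helicase at origins, rose by the same log2 amount, to 97.5 and 98.0 CPM on day 2, against 64.8 and 65.1 CPM on day 1. CCNE2, a G1/S cyclin, showed a larger rise from a low level, with 11.2 and 10.99 CPM on day 2, against 4.97 and 4.79 CPM on day 1 (1.19, SE 0.136, adjusted p = 2.15e-06). UHRF1, which keeps DNA methylation through replication and whose promoter is printed above, had a log2 fold change of 0.55 (SE 0.0378). POLD2, a subunit of DNA polymerase delta, was among the 5 S phase genes not called, at 152 and 151 CPM on day 2, against 156 and 150.1 CPM on day 1.

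Mitotic genes moved with the S phase genes, at a somewhat smaller median. ECT2, a guanine nucleotide exchange factor needed for cytokinesis, had 215 and 222 CPM on day 2, against 144 and 145 CPM on day 1 (0.59, SE 0.0311, adjusted p = 8.52e-11). CCNA2, the cyclin of S phase and early mitosis, had 139.9 and 132 CPM on day 2, against 92.8 and 94.0 CPM on day 1 (0.54, SE 0.0422). The days did not overlap in either gene. NCAPG, a condensin subunit, and CENPF, a kinetochore protein, had log2 fold changes of 0.55 and 0.38. The one mitotic gene that fell was CKS2, a small partner of cyclin-dependent kinases, at 163 and 157 CPM on day 2, against 177 and 176 CPM on day 1 (−0.15, adjusted p = 0.00924), and its call was lost with TPM, at equal depth and without day 2 replicate 2 (adjusted p up to 0.12). NCAPD2, another condensin subunit, had 204 and 201 CPM on day 2, against 203 and 202 CPM on day 1, and was not called.

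Regulators of G1 did not move as a group, with 4 of 19 higher, 4 lower and a median of 0.03. CDK2, the kinase of the G1/S transition, rose by 0.38 and CCND3, a D-type cyclin, by 0.47 on the log2 scale. Among inhibitors of these kinases, CDKN1A (p21) rose by 0.25, at 239 and 232 CPM on day 2, against 200.3 and 196 CPM on day 1. CDKN1B (p27) fell by 0.30, CDKN2A by 0.33 and CDKN2B by 0.62, and CCNG2, a cyclin of resting cells, fell by 0.56, with 25.8 and 27.3 CPM on day 2, against 40.4 and 38.1 CPM on day 1. With limma on TPM the calls of CDKN1B, CDKN2A and CDKN2B were lost (adjusted p 0.104, 0.0759 and 0.313), and 4 G1 genes were higher and 1 lower. CCND1 was abundant and not called, with 437 and 462 CPM on day 2, against 436 and 444 CPM on day 1. Replication-dependent histone genes, whose RNAs lack a poly(A) tail and are poorly seen by most libraries, gave 2 calls in each direction among 32 tested, and none without day 2 replicate 1. Of 28 nucleotide synthesis genes, 18 rose and 2 fell (median 0.20). They include CTPS1, which makes CTP (0.47, SE 0.0283), and PAICS of purine synthesis (0.30, SE 0.0204), while CAD of pyrimidine synthesis had 230.4 and 230.2 CPM on day 2, against 229 and 229.7 CPM on day 1.

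**Figure D2:**
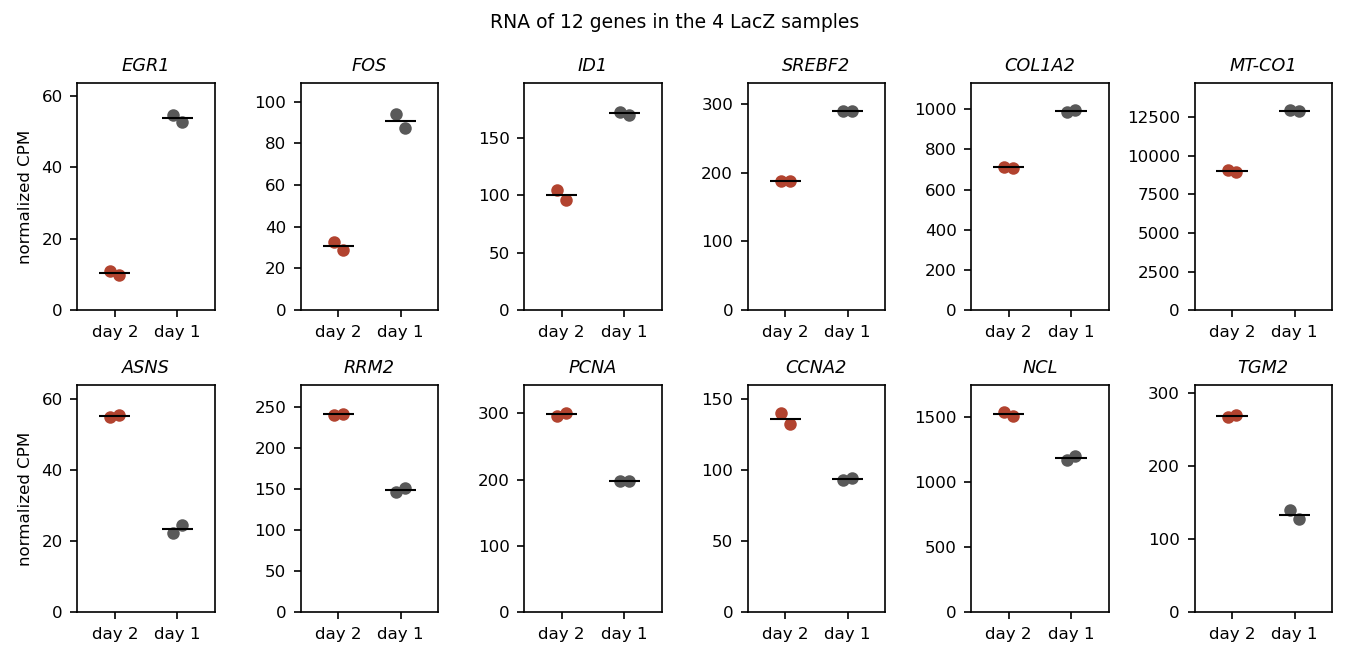
Normalized CPM (linear axes from 0) of 12 genes in the 4 LacZ libraries, with day 2 left of day 1, a point for each library and a bar at the mean of each day. In each of the 12 genes both libraries of one day lie beyond both of the other, as in RRM2 with 240.3 and 242 CPM on day 2 and 147 and 152 CPM on day 1. These genes were picked from the called genes, and the days did not overlap in 63.7% of all genes tested.

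Genes that build ribosomes and genes that encode ribosomal proteins moved in opposite directions. Of 59 ribosome biogenesis genes, 51 rose on day 2 and 1 fell, with a median log2 fold change of 0.28. NCL, the nucleolar protein nucleolin, had 1537 and 1503 CPM on day 2, against 1170.5 and 1197 CPM on day 1 (0.36, SE 0.0158, adjusted p = 9.04e-12). DDX21, a nucleolar helicase, had 444 and 430.1 CPM on day 2, against 323 and 326 CPM on day 1 (0.43, SE 0.0228). All day 2 values of both genes lay above the day 1 values. EBNA1BP2, which matures the large subunit and carries an E-box in the stretch printed above, had 181 and 182 CPM on day 2, against 119.8 and 123 CPM on day 1 (0.58, SE 0.038). NOLC1, a nucleolar chaperone, had a log2 fold change of 0.39 and UTP20, of the small subunit processome, of 0.26. UBTF, a factor of RNA polymerase I, had −0.11 (adjusted p = 0.0237), and its call was lost under 7 alternatives.

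Of 79 cytosolic ribosomal protein genes, 63 fell and 1 rose, with a median log2 fold change of −0.16. Their summed level was 49010 and 49990 CPM on day 2, against 55510 and 56340 CPM on day 1. RPL13 had 883 and 910.4 CPM on day 2, against 1154 and 1162 CPM on day 1 (−0.37, SE 0.0171, adjusted p = 1.59e-11), and RPL3 had 1836 and 1853 CPM on day 2, against 2277 and 2299 CPM on day 1 (−0.31, SE 0.0145). RPL13A fell by 0.32 and RPL5 by 0.25. FAU, which encodes RPS30, gave the one higher call (0.09, adjusted p = 0.0372), lost under 6 alternatives, and RPS24 had 655 and 651 CPM on day 2, against 641 and 647 CPM on day 1, without a call.

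Of 47 translation factor genes, 22 rose and 14 fell. EEF2, the translocase of elongation, had 3206 and 3208 CPM on day 2, against 4573 and 4496 CPM on day 1 (−0.50, SE 0.0107, adjusted p = 7.54e-16). EEF1A1, the carrier of aminoacyl tRNA, had 8913 and 8840.2 CPM on day 2, against 11179.8 and 11493 CPM on day 1 (−0.35, SE 0.0119). EIF4B fell by 0.53 and PABPC1, the poly(A) binding protein, by 0.32. These 4 RNAs are known, like those of ribosomal proteins, to begin with a terminal oligopyrimidine tract, which ties their translation to mTOR. Among those that rose were EIF5 by 0.32, the helicase EIF4A1 by 0.24 and EIF5A by 0.23 on the log2 scale.

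Amino acid supply genes rose together with the tRNA synthetases. Of 20 cytosolic aminoacyl tRNA synthetase genes, 16 rose and 1 fell, with a median of 0.31. Of 34 ATF4 and integrated stress response genes, 20 rose and 5 fell, with a median of 0.26. ASNS, asparagine synthetase (chr7:97480989-97501854, GRCh37), had 55.2 and 55.5 CPM on day 2, against 22.5 and 24.7 CPM on day 1 (1.23, SE 0.0574, adjusted p = 1.77e-11). The days did not overlap. SLC7A5, the large neutral amino acid transporter, had 202 and 203 CPM on day 2, against 125 and 132 CPM on day 1 (0.65, SE 0.0411). MTHFD2, of mitochondrial one-carbon metabolism, rose by 0.63 and PSAT1, of serine synthesis, by 0.54. CARS, which charges cysteine tRNA, had 71.7 and 67.0 CPM on day 2, against 41.0 and 40.2 CPM on day 1 (0.77, SE 0.055). YARS rose by 0.53, EPRS by 0.42, NARS by 0.35, AARS by 0.26 and IARS by 0.19.

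Some members of the same groups went the other way. SLC38A2, a glutamine transporter that ATF4 induces, had 172 and 172 CPM on day 2, against 229 and 230.1 CPM on day 1 (−0.42, SE 0.0317). DDIT4, an mTOR inhibitor, fell by 0.18, and QARS, the glutamine enzyme and the one synthetase that fell, by 0.22, with both calls lost under limma on TPM (adjusted p 0.0743 and 0.344). PPP1R15A, which reverses the stress block on initiation, had 63.6 and 65.4 CPM on day 2, against 64.4 and 62.4 CPM on day 1, and LARS had 170.0 and 174 CPM on day 2, against 176 and 175 CPM on day 1. Neither was called.

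Of 33 heat shock genes, 20 rose and 5 fell (median 0.22). HSP90AB1, the constitutive HSP90, had 2566 and 2564 CPM on day 2, against 2015 and 2017 CPM on day 1 (0.35, SE 0.0102, adjusted p = 4e-14). HSPD1, the mitochondrial chaperonin, had 1114 and 1086 CPM on day 2, against 835 and 858 CPM on day 1 (0.38, SE 0.0187), and HSPA9, the mitochondrial HSP70, rose by 0.34. CRYAB, a small heat shock protein, had 318 and 328 CPM on day 2, against 425 and 437 CPM on day 1 (−0.42, SE 0.0223). Its relative HSPB1 fell by 0.28 and the stress-inducible HSPA1B by 0.29. In the endoplasmic reticulum, 16 of 36 chaperone and unfolded protein response genes rose and 1 fell (median 0.08). HSP90B1 and CANX each rose by 0.36 and CALR by 0.23, while DNAJB9, a classic target of the unfolded protein response, had 30.5 and 30.4 CPM on day 2, against 38.7 and 41.3 CPM on day 1 (−0.39), a call lost under limma on TPM (adjusted p = 0.0946).

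Glycolysis genes were higher in 13 of 27 and lower in 3, with a median of 0.10. LDHA, lactate dehydrogenase, had 1405 and 1384 CPM on day 2, against 1028 and 1048 CPM on day 1 (0.43, SE 0.0161, adjusted p = 1.16e-12). GAPDH had 2554 and 2542 CPM on day 2, against 2159 and 2166 CPM on day 1 (0.24, SE 0.0119), so this common reference gene differed between the days. ENO1 rose by 0.19 and HK2, an inducible hexokinase, by 0.67. PKM, pyruvate kinase, fell by 0.17 and SLC2A1, the glucose transporter GLUT1, by 0.22. The hypoxia list held 5 higher and 12 lower of 29, or 3 higher and 5 lower with limma on TPM, and 2 and 8 without day 1 replicate 2. Its members include ADM, adrenomedullin, at 87.1 and 86.0 CPM on day 2, against 125 and 126 CPM on day 1 (−0.54). For iron, TFRC, the transferrin receptor, had 526 and 519 CPM on day 2, against 363 and 364 CPM on day 1 (0.52, SE 0.0218, adjusted p = 4.61e-12). The ferritin chains fell, FTH1 by 0.18 and FTL by 0.19, and so did ACO1, the iron regulatory protein (−0.26), whose call was lost under limma on TPM (adjusted p = 0.104).

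RNAs encoded by mitochondrial DNA fell in 12 of 13 cases, with a median log2 fold change of −0.33, and the nuclear genes of the same respiratory complexes gave calls in both directions. MT-CO1, a core subunit of cytochrome oxidase, had 9037 and 8927 CPM on day 2, against 12924 and 12865 CPM on day 1 (−0.52, SE 0.0127, adjusted p = 2.54e-15). MT-ND4, of complex I, had 4164 and 4169 CPM on day 2, against 6320.4 and 6235 CPM on day 1 (−0.59, SE 0.0187). MT-ND5 fell by 0.53 and MT-CYB by 0.46. The exception was MT-ND2, with 3531 and 3558 CPM on day 2, against 3659 and 3586 CPM on day 1 (−0.03, adjusted p = 0.322), although it is cut from the same long precursor as its neighbours. This exception was not firm, since MT-ND2 was also called lower under an alternative setting. Among 70 nuclear oxidative phosphorylation genes 21 rose and 10 fell (median 0.05), with 14 and 6 in DESeq2 and 12 and 5 without day 1 replicate 1. ATP5B rose by 0.31 and ATP5A1, the other catalytic-core subunit of the same enzyme, fell by 0.18.

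Immediate-early genes were lower on day 2, and EGR1 and FOS had the largest called drops among the members of all lists. Of 26 tested, 16 fell and 1 rose (median −0.33). EGR1, a zinc finger factor of the serum response (chr5:137801168-137804992, GRCh37), had 11.001 and 9.97 CPM on day 2, against 54.5 and 52.7 CPM on day 1 (−2.35, SE 0.0761, adjusted p = 1.61e-13). FOS had 32.8 and 29.1 CPM on day 2, against 94.1 and 87.5 CPM on day 1 (−1.55, SE 0.0588). JUNB, a dimer partner of FOS, had 33.2 and 34.3 CPM on day 2, against 68.6 and 63.7 CPM on day 1 (−0.97, SE 0.0631). For these 3 genes the days were far apart compared with the libraries of each day. IER2 fell by 0.70. The one member that rose was ATF3, a stress factor, with 61.7 and 60.1 CPM on day 2, against 51.1 and 51.8 CPM on day 1 (0.24, SE 0.0434). SRF, which binds the serum response element of EGR1 and FOS, had 103 and 109.5 CPM on day 2, against 108 and 114 CPM on day 1, with no call.

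Lists of signalling downstream of growth factors and matrix contact held more lower than higher calls. MAPK feedback genes were higher in 5 and lower in 10 of 22. SPRY4, an inhibitor of receptor signalling, had 31.7 and 33.7 CPM on day 2, against 44.8 and 45.5 CPM on day 1 (−0.47), LIF fell by 0.43, the MAP kinase phosphatase DUSP1 by 0.31 and the EGF receptor inhibitor ERRFI1 by 0.28. ETV4, a factor induced by FGF signalling, and MYEOV rose, by 0.32 and 0.54. YAP and TEAD target genes were higher in 2 and lower in 10 of 22, and with DESeq2 in 1 and 6, with limma on TPM in 2 and 5, and without day 2 replicate 1 in 1 and 6. CYR61, a matricellular target of YAP, had 86.0 and 82.2 CPM on day 2, against 116 and 121 CPM on day 1 (−0.50, SE 0.0491). YAP1 itself fell by 0.31 and AMOTL2, its inhibitor, by 0.23, while the receptor AXL rose by 0.35. Growth factors, cytokines and receptors were higher in 2 and lower in 14 of 29, or 2 and 8 with limma on TPM, and HBEGF, a ligand of the EGF receptor, had 23.3 and 20.9 CPM on day 2, against 37.1 and 35.3 CPM on day 1 (−0.71).

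TGF-beta and BMP pathway genes fell in 18 of 33 and rose in 1, with a median of −0.21, and in 9 and 0 with limma on TPM. The BMP targets led. ID1, an inhibitor of basic helix-loop-helix factors, had 104 and 95.8 CPM on day 2, against 173 and 170.1 CPM on day 1 (−0.77, SE 0.0391, adjusted p = 4.84e-11). ID3 had 341 and 349 CPM on day 2, against 504 and 514 CPM on day 1 (−0.56, SE 0.0243). Both genes had their days well apart. BAMBI, a decoy receptor, fell by 0.34 and LTBP2, a matrix protein related to TGF-beta carriers, by 0.21. The ligand TGFB1 gave the one higher call (0.22, adjusted p = 0.0297), which was lost under 6 alternatives. Wnt pathway genes fell in 10 of 28 and rose in none, with WNT2B at 273 and 274 CPM on day 2, against 352 and 357 CPM on day 1 (−0.37) and the coreceptor LRP5 down by 0.45. With limma on TPM, or without day 1 replicate 1, 6 Wnt genes were called. Notch genes fell in 6 of 20 and rose in none, including RBPJ, the DNA-binding partner of Notch, and NOTCH2, each by 0.22.

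Matrix genes were lower in 19 of 31 and higher in 3, with a median of −0.12, and lower in 8 and higher in 2 with limma on TPM. COL11A1, a fibrillar collagen, had 2275 and 2259 CPM on day 2, against 3226 and 3187 CPM on day 1 (−0.50, SE 0.0139, adjusted p = 1.92e-14). COL1A2 had 714 and 708 CPM on day 2, against 985 and 994 CPM on day 1 (−0.48, SE 0.0211). COL3A1 fell by 0.40 and LAMB2, a basement membrane laminin, by 0.45. SPARC, a collagen-binding matricellular protein, rose by 0.22. The adhesion molecule L1CAM had 285 and 283 CPM on day 2, against 408 and 408 CPM on day 1 (−0.52), and the protease ADAMTS1 fell by 0.46. PLAUR, the urokinase receptor, had 45.8 and 45.6 CPM on day 2, against 29.5 and 30.0 CPM on day 1 (0.62).

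Among 24 microtubule and intermediate filament genes 17 rose and 1 fell (median 0.24). VIM, vimentin, had 1878 and 1906 CPM on day 2, against 1563 and 1597 CPM on day 1 (0.26, SE 0.0198). TUBA1C rose by 0.40 and TUBB6 by 0.30, and TUBA1A fell by 0.26, a family whose members are near copies of each other and can share reads. KRT8 and KRT18, the keratin pair of simple epithelia that rhabdoid cells also make, rose by 0.19 and 0.17. Actin cytoskeleton genes were mixed, with 15 higher and 9 lower of 41. ACTB had 4592 and 4538 CPM on day 2, against 3842 and 3884 CPM on day 1 (0.24, SE 0.011), ACTG1 had 2557 and 2560.3 CPM on day 2, against 2553 and 2525 CPM on day 1, with no call, and the tropomyosins split, TPM2 rising by 0.50 and TPM1 falling by 0.20.

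Genes of sterol synthesis were mostly lower on day 2. Of 29 cholesterol synthesis and uptake genes, 15 fell and 2 rose (median −0.17), and 9 and 1 with limma on TPM. SREBF2, the master factor of cholesterol synthesis, had 188 and 188 CPM on day 2, against 289.9 and 289.8 CPM on day 1 (−0.62, SE 0.0253, adjusted p = 3.42e-12). Both libraries of each day were nearly equal and the days far apart. HMGCS1 fell by 0.38 and DHCR7 by 0.37. SREBF1, the related factor of fatty acid synthesis, had 238 and 243 CPM on day 2, against 245 and 241 CPM on day 1, with no call. Fatty acid synthesis genes fell in 9 of 25 and rose in 1, with FASN down by 0.18 and SCD by 0.10, but with limma on TPM 1 fell and 3 rose and both of these calls were lost (adjusted p 0.267 and 0.118).

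Lysosome and autophagy genes fell in 16 of 39 and rose in 5, with 7 and 4 under limma on TPM. GRN, progranulin, had 211 and 219 CPM on day 2, against 302 and 302 CPM on day 1 (−0.49, SE 0.033). NPC2, which hands cholesterol out of the lysosome, fell by 0.46 and CTSD, cathepsin D, by 0.30. GPNMB, a membrane glycoprotein of lysosomes and melanosomes (chr7:23275586-23314727, GRCh37), was in no list and gave one of the smallest p-values of all genes, with 602 and 589 CPM on day 2, against 1019 and 1039 CPM on day 1 (−0.79, SE 0.0177, adjusted p = 9.23e-16).

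Among the largest single changes, few genes were abundant. CHI3L1, a secreted chitinase-like glycoprotein, had 5.50 and 4.52 CPM on day 2, against 1.53 and 1.38 CPM on day 1 (1.79, SE 0.287). TSPAN1, a tetraspanin, rose by 1.29 and S100A3, a calcium-binding protein, by 1.24. BCYRN1, a short cytoplasmic RNA known from neurons, had 74.1 and 70.4 CPM on day 2, against 32.3 and 34.6 CPM on day 1 (1.11, SE 0.0754), and its sequence resembles Alu repeats found throughout the genome, so its reads are uncertain. TGM2, tissue transglutaminase (chr20:36755787-36794980, GRCh37), had the largest called rise among the genes averaging over 100 CPM, at 267 and 271 CPM on day 2, against 139.9 and 127 CPM on day 1 (1.01, SE 0.0347, adjusted p = 3.04e-13). Both day 2 libraries lay above both day 1 libraries, as the rule that named this gene required. ANXA1, a phospholipid-binding protein, rose by 0.54 (adjusted p = 3.59e-12).

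Larger fitted changes were found in genes near the filter on low counts, which are not described here. Among drops with more counts behind them, CCL25, a chemokine, was at 2.51 and 2.30 CPM on day 2, against 9.94 and 10.6 CPM on day 1 (−2.08, SE 0.205, adjusted p = 3.55e-07). MCF2L, a guanine nucleotide exchange factor, fell by 1.51, to 1.65 and 1.70 CPM on day 2, against 5.2 and 4.39 CPM on day 1. IGFN1, an immunoglobulin-like protein of skeletal muscle, had 36.7 and 34.9 CPM on day 2, against 84.0 and 90.2 CPM on day 1 (−1.28, SE 0.0609). Some of the largest fitted changes are not firm. SLX1B had 20.1 and 9.12 CPM on day 2, against 5.89 and 1.05 CPM on day 1 (2.15, adjusted p = 0.0182), and SERF1A had 2.67 and 1.02 CPM on day 2, against 6.27 and 10.8 CPM on day 1 (−2.19, adjusted p = 0.0328). Each has a near-identical copy, SLX1A and SERF1B, between which reads can be divided differently in each library, and each lost its call with DESeq2, with TPM, and without day 1 replicate 2 or day 2 replicate 1 (adjusted p up to 0.305). SERF1A also lost it without day 2 replicate 2.

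The p53 targets were higher in 14 and lower in 6 of 35 (median 0.08). MDM2, the negative regulator of p53, rose by 0.24 beside CDKN1A, while BBC3 (PUMA), which promotes apoptosis, had 31.1 and 31.0 CPM on day 2, against 57.0 and 54.8 CPM on day 1 (−0.85, SE 0.0547), and GDF15 fell by 0.34. Apoptosis genes were higher in 5 and lower in 8 of 31, and in 4 each without day 2 replicate 1. CYCS, cytochrome c, and BIRC5 (survivin), which is also a mitotic gene, each rose by 0.41, and MCL1, which protects cells, fell by 0.26. Interferon-stimulated genes were lower in 13 and higher in 1 of 37, or 6 and 1 with limma on TPM. Those lower include B2M (−0.21) and TAP1 (−0.18, lost with TPM at adjusted p = 0.101), and the one higher was ZC3HAV1 (0.31), an antiviral factor. BST2, tetherin, had 231 and 249 CPM on day 2, against 252 and 247 CPM on day 1. NF-kB and inflammatory genes were higher in 3 and lower in 8 of 26, with NFKBIA, the inhibitor of NF-kB, down by 0.23 and CSF1 by 0.28, and in 3 and 4 with limma on TPM.

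Of 24 SWI/SNF subunit genes, 4 rose and 6 fell (median 0.00236), and with limma on TPM 2 rose and 2 fell, and without day 1 replicate 2 or without day 2 replicate 1 it was 1 and 5. SMARCA4, the ATPase, had 664 and 656 CPM on day 2, against 727 and 707 CPM on day 1 (−0.12, SE 0.0197), a call lost with TPM (adjusted p = 0.436). SMARCC2 fell by 0.29 and ARID1B by 0.28, and SMARCE1 rose by 0.19. EZH2, the methyltransferase that opposes SWI/SNF, rose by 0.31, MYC fell by 0.31 and GPC3, an oncofetal glypican, by 0.47. The nuclear-retained RNA MALAT1 had 140.2 and 139 CPM on day 2, against 232 and 211 CPM on day 1 (−0.66, SE 0.054), HOTAIR fell by the same amount and NEAT1 had 119.8 and 126 CPM on day 2, against 128 and 124 CPM on day 1.

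Splicing factors of the SR and hnRNP families were higher in 17 and lower in 8 of 35, and NRF2 and redox genes in 6 and 10 of 29. Axon guidance genes were higher in 3 and lower in 12 of 33, but in 3 and 2 with limma on TPM and in 1 and 8 without day 2 replicate 1. Kidney progenitor and mesenchyme transcription factors were lower in 5 of 16 and higher in none, with 1 lower under limma on TPM. Matrix proteases and their inhibitors were higher in 4 and lower in 7 of 18, integrins and adhesion receptors in 3 and 5 of 16, and metallothionein and metal transport genes in 5 and 3 of 17 (5 and 0 with TPM). Circadian clock genes gave 2 calls in each direction of 16 (1 each with TPM), nuclear-retained and small RNA host genes 1 higher and 7 lower of 20 (1 and 2 with TPM), and the rhabdoid markers 4 higher and 3 lower of 10. ELF3 was the one epithelial marker called, at 3.14 and 3.15 CPM on day 2, against 5.43 and 4.33 CPM on day 1 (−0.62, adjusted p = 0.0303), a call lost under 8 alternatives (adjusted p up to 0.477), and no endothelial or blood cell marker was called.

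The pregnancy-specific glycoprotein (PSG) genes, placental secreted proteins encoded side by side on chromosome 19, fell in 4 of 10 cases. PSG4 had 182 and 179.7 CPM on day 2, against 260.3 and 268 CPM on day 1 (−0.55, SE 0.0327), and PSG5 fell by 0.60, PSG1 by 0.40 and PSG9 by 0.31. The median over the 10 was −0.22. These genes are close copies of each other and can share reads. PSG3 had 24.2 and 17.6 CPM on day 2, against 24.5 and 24.5 CPM on day 1 (−0.22, adjusted p = 0.126).

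The BRD9 KO libraries of the same days, which share no library with the LacZ comparison, were compared next. Day 2 differed from day 1 in 4538 genes there (30.2%), 2151 of them higher (14.3%) and 2387 lower (15.9%). Of the 4695 genes called in LacZ cells, 3327 were also called in BRD9 KO cells (70.9% of the LacZ calls and 73.3% of the BRD9 KO calls), 3314 of them with the same sign. Counting also those that passed in LacZ cells alone, 4541 (96.7%) had the same sign, against 76.6% over all genes tested. The median absolute log2 fold change of the 3327 genes was 0.275 in LacZ and 0.277 in BRD9 KO cells. Across the 4695 genes the log2 fold changes of the guides correlated at 0.473 (Pearson). The correlation was 0.0618 among those called higher and 0.3 among those called lower in LacZ cells. Pearson correlations are sensitive to extreme values. The called genes include 40 averaging under 1 CPM, whose median absolute log2 fold change was 3.38, against 0.286 between 10 and 100 CPM. How far these genes set the correlations was not tested, so the correlations do not show how alike the sizes were in abundant genes. The groups followed: 59 of 61 S phase genes rose in BRD9 KO cells, 45 of 59 ribosome biogenesis genes rose, 67 of 79 ribosomal protein genes fell, and 15 of 26 immediate-early genes fell.

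**Figure D3:**
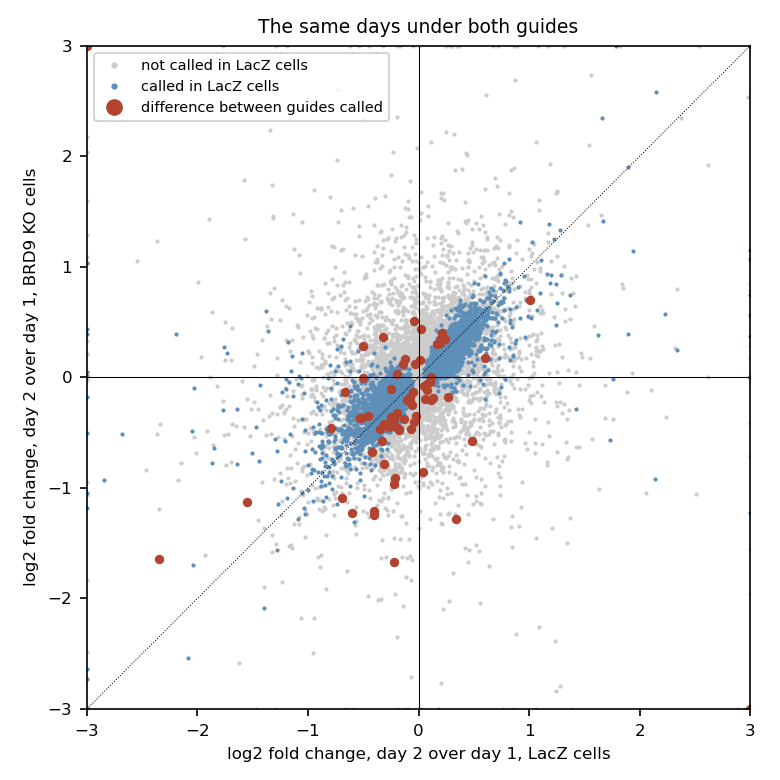
Log2 fold change of day 2 against day 1 for each gene tested, in LacZ cells (horizontal) and in BRD9 KO cells (vertical), with genes called in LacZ cells and genes whose difference between the guides was called in colours of their own. The 118 genes beyond 3 in either direction are drawn at the edge. Called genes had the same sign under both guides in 4541 of 4695, and their log2 fold changes correlated at 0.473 (Pearson). The correlation was taken over the values before they were cut at 3, including low-count genes with large fitted changes.

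The difference between the guides was itself called in 69 genes (0.459% of those tested), of which 20 had opposite signs in LacZ and BRD9 KO cells, 12 a larger change in LacZ and 37 a larger change in BRD9 KO cells. The count was 13 or 14 with limma on TPM and 44 without LacZ day 2 replicate 1. Of the PSG genes, 6 of 10 were called for the difference. PSG1 fell by 0.40 in LacZ cells and by 1.21 in BRD9 KO cells (difference 0.81, SE 0.0574, adjusted p = 3.32e-07), and PSG9 by 0.31 and 0.78 (difference 0.47, SE 0.0289, adjusted p = 5.98e-08). F2RL2, a thrombin receptor relative, and LTBP2 also fell less in LacZ cells, by 0.42 against 0.68 and by 0.21 against 0.45. In the other direction, EGR1 fell by 2.35 in LacZ and by 1.65 in BRD9 KO cells, and GPNMB by 0.79 and 0.45. MALAT1 fell by 0.66 in LacZ cells and had −0.13 in BRD9 KO cells, NEAT1 had −0.04 and 0.50, and CYR61 had −0.50 and −0.00445. TGM2 rose more in LacZ cells, by 1.01 against 0.70. Mitochondrial RNAs fell more in LacZ cells, with 5 of 13 called for the difference, MT-CO1 by 0.52 against 0.37, and the mitochondrial share of counts was 5.29% and 5.26% in LacZ and 5.96% and 5.996% in BRD9 KO libraries on day 2.

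A later step in the LacZ cells, day 5 against day 3, was smaller and often ran the other way. There 2332 genes differed (15.5%), 1134 higher (7.55%) and 1198 lower (7.97%), and these libraries are not those of days 1 and 2. Of the 4695 genes called between day 2 and day 1, 1329 were called again (28.3%, or 57.0% of the later calls), 402 of these with the same sign. Over all 4695 genes 37.2% had the same sign, against 43.1% of all genes tested. The lysosome list had 18 of 39 higher and 2 lower between day 5 and day 3, where it had 5 and 16 between day 2 and day 1, and the cholesterol list 13 of 29 higher and 1 lower, where it had 2 and 15. Of the S phase genes 10 were higher and 2 lower, of 61. The PSG genes were higher in 9 of 10.

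The course over the LacZ libraries of days 1, 2, 3 and 5 shows which groups kept their day 2 level. The measure is the median over a list of log2 CPM, centred for each gene on its mean over the 16 libraries. S phase genes stood at −0.207 and −0.230 on day 1, 0.185 and 0.178 on day 2, 0.061 and 0.036 on day 3, and 0.071 and 0.090 on day 5, so day 2 was the highest. Ribosome biogenesis genes stood at −0.219 and −0.225, then 0.061 and 0.062, 0.125 and 0.137, and 0.037 and 0.039 on those days, with all later days above day 1. Mitochondrially encoded RNAs were at 0.127 and 0.114 on day 1 and −0.238 and −0.242 on day 2, and between 0.011 and 0.027 on days 3 and 5. Immediate-early genes were at 0.159 and 0.140 on day 1, −0.234 and −0.208 on day 2, −0.102 and −0.039 on day 3, and 0.014 and −0.053 on day 5. For single genes, EGR1 had 54.5 and 52.7 CPM on day 1, 11.001 and 9.97 CPM on day 2, 19.5 and 18.9 CPM on day 3, and 16.2 and 16.3 CPM on day 5, so both day 1 libraries lay above all 6 later ones. ID1 had 173 and 170.1 CPM on day 1, 104 and 95.8 CPM on day 2, 146 and 146 CPM on day 3, and 180.3 and 175 CPM on day 5, returning to the level of day 1. TGM2 went on rising, with 361 and 368 CPM on day 3 and 439.95 and 459 CPM on day 5. Cholesterol genes reached their lowest level on day 3, at −0.188 and −0.161, against 0.166 and 0.162 on day 1.

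**Figure D4:**
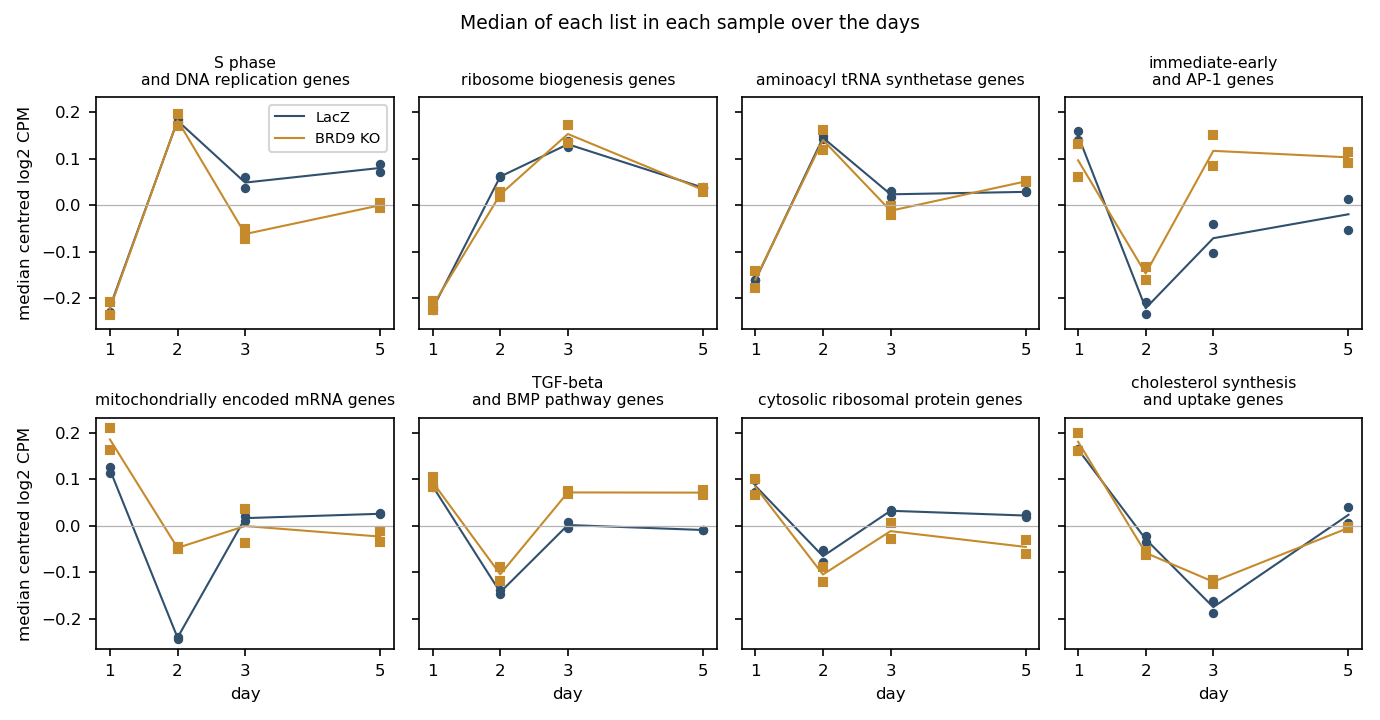
Median centred log2 CPM of 8 gene lists over days 1, 2, 3 and 5, with a point for each library and lines through the means of LacZ and BRD9 KO libraries. S phase genes are lowest on day 1 (−0.207 and −0.230 in LacZ libraries) and highest on day 2 (0.185 and 0.178), and mitochondrially encoded RNAs show the reverse.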

How the data were processed

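RNA-seq was made from G401 cells with a LacZ or BRD9 guide on days 1, 2, 3 and 5, with 2 libraries per guide and day. Per the study's methods, total RNA was prepared with a kit that does not mark strand, and the authors aligned reads to hg19 with STAR and quantified genes with RSEM, versions not given in the sources used here. The deposited expected count values are RSEM estimates (35.7% of the values above 0 were not whole) and were rounded, which moved each library total by 90.14 or less. The deposited TPM values were computed by the authors with RSEM per length and library.

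Genes passing filterByExpr (minimum count 10, minimum total 15) were fitted in edgeR 4.0.16 (R 4.3.3) with TMM and the quasi-likelihood test, 1 mean per guide and day over all 16 libraries (8 residual degrees of freedom), and p-values were Benjamini-Hochberg adjusted over all genes tested. Genes with an adjusted p under 0.05 count as called. CPM are TMM-normalized. Alternatives used DESeq2 1.42.0, limma 3.58.1 on log2(TPM + 1) and log2(TPM + 0.1), other scalings, filters and sample sets, equal depth, a replicate block and each library left out. Scripts were tested on simulated data.

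Named genes are the 15 highest and 15 lowest fold changes (called, days not overlapping, log2 CPM averaging 1 or more), the 6 smallest p per direction, up to 4 called members per direction and 2 abundant uncalled members of each of 48 lists, SWI/SNF subunits, and the 6 smallest p per direction for the difference between the guides. Not all are printed. Members and lists were chosen with earlier results of these data known. Gene positions are GRCh37 and promoter sequences RefSeq GRCh38.p14.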

Additional observations from a re-analysis of the deposited data

Results flagged for a closer look

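The log2 fold changes of day 2 against day 1 differed between LacZ and BRD9 KO cells for 30 of the genes described, by edgeR's test of the difference itself, given here as LacZ minus BRD9 KO. Among the pregnancy-specific glycoprotein genes, PSG1 had −0.40 in LacZ and −1.21 in BRD9 KO cells (difference 0.81, adjusted p = 3.32e-07). PSG3 had −0.22 in LacZ and −0.96 in BRD9 KO cells (difference 0.74, adjusted p = 0.0462). PSG5 had −0.60 in LacZ and −1.23 in BRD9 KO cells (difference 0.62, adjusted p = 0.000111). PSG9 had −0.31 in LacZ and −0.78 in BRD9 KO cells (difference 0.47, adjusted p = 5.98e-08). Among mitochondrially encoded RNAs, MT-CO1 had −0.52 in LacZ and −0.37 in BRD9 KO cells (difference −0.15, adjusted p = 0.000175). MT-CYB had −0.46 in LacZ and −0.35 in BRD9 KO cells (difference −0.11, adjusted p = 0.0363). MT-ND1 had −0.19 in LacZ and 0.03 in BRD9 KO cells (difference −0.22, adjusted p = 0.000357). MT-ND2 had −0.03 in LacZ and 0.12 in BRD9 KO cells (difference −0.15, adjusted p = 0.0419). MT-ND5 had −0.53 in LacZ and −0.37 in BRD9 KO cells (difference −0.17, adjusted p = 0.00203). Among immediate-early and YAP target genes, EGR1 had −2.35 in LacZ and −1.65 in BRD9 KO cells (difference −0.70, adjusted p = 0.00448). FOS had −1.55 in LacZ and −1.13 in BRD9 KO cells (difference −0.42, adjusted p = 0.0413). CYR61 had −0.50 in LacZ and −0.00445 in BRD9 KO cells (difference −0.49, adjusted p = 0.00118). Among long noncoding RNAs, MALAT1 had −0.66 in LacZ and −0.13 in BRD9 KO cells (difference −0.53, adjusted p = 0.00144). NEAT1 had −0.04 in LacZ and 0.50 in BRD9 KO cells (difference −0.54, adjusted p = 1.18e-05). CTD-2339F6.1 had −0.07 in LacZ and −0.46 in BRD9 KO cells (difference 0.40, adjusted p = 0.000101). Among cytoskeletal genes, ACTB had 0.24 in LacZ and 0.34 in BRD9 KO cells (difference −0.10, adjusted p = 0.00275). ACTG1 had 0.01 in LacZ and 0.16 in BRD9 KO cells (difference −0.14, adjusted p = 0.000231). KRT8 had 0.19 in LacZ and 0.31 in BRD9 KO cells (difference −0.12, adjusted p = 0.0106). KRT18 had 0.17 in LacZ and 0.30 in BRD9 KO cells (difference −0.14, adjusted p = 0.00144). Among translation genes, EEF1A1 had −0.35 in LacZ and −0.46 in BRD9 KO cells (difference 0.11, adjusted p = 0.00238). PABPC1 had −0.32 in LacZ and −0.42 in BRD9 KO cells (difference 0.11, adjusted p = 0.00284). RPL5 had −0.25 in LacZ and −0.36 in BRD9 KO cells (difference 0.11, adjusted p = 0.0396). Among metabolic genes, SCD had −0.10 in LacZ and −0.21 in BRD9 KO cells (difference 0.10, adjusted p = 0.0109). SLC2A1 had −0.22 in LacZ and −0.37 in BRD9 KO cells (difference 0.15, adjusted p = 0.00195). DDIT4 had −0.18 in LacZ and −0.47 in BRD9 KO cells (difference 0.29, adjusted p = 0.00985). Among membrane and matrix genes, EMP1 had −0.25 in LacZ and −0.11 in BRD9 KO cells (difference −0.14, adjusted p = 8.01e-05). F2RL2 had −0.42 in LacZ and −0.68 in BRD9 KO cells (difference 0.26, adjusted p = 8.01e-05). GPNMB had −0.79 in LacZ and −0.45 in BRD9 KO cells (difference −0.33, adjusted p = 4.82e-07). LTBP2 had −0.21 in LacZ and −0.45 in BRD9 KO cells (difference 0.24, adjusted p = 0.000111). TGM2 had 1.01 in LacZ and 0.70 in BRD9 KO cells (difference 0.31, adjusted p = 0.00415).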

How the results depend on the processing

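The count of genes that differed between day 2 and day 1 in LacZ cells (4695) lay between 3327 (DESeq2) and 4717 (filter at 1 CPM) in most other settings, at 2590 and 2577 with limma on log2(TPM + 1) and log2(TPM + 0.1), and at 416 with a fold of at least 1.5 in addition. In BRD9 KO cells the same 3 settings gave 2757, 2751 and 451. For the difference between the guides (69) they gave 13, 14 and 14, and 243 genes were called without a filter on low counts. For day 5 against day 3 in LacZ cells they gave 826, 832 and 154, and DESeq2 gave 1462. Leaving out 1 library gave 3483 to 3626 genes for LacZ, 3222 to 3663 genes for BRD9 KO, 44 (without LacZ day 2 replicate 1) to 60 for the difference, and 1269 to 1605 for day 5 against day 3, with 1269 without LacZ day 5 replicate 1, 1430 without day 3 replicate 2 and 1470 without day 3 replicate 1. The lone library of a day is then assumed to vary like the others. The cause of these changes was not tested. With the replicate number as a block 4714, 4499, 77 and 2310 genes were called in these 4 comparisons. Same-numbered libraries were not taken as paired, since no label says that a number marks a shared culture and there are too few pairs to judge from the data. Deviations of LacZ days 2 and 1 correlated at −0.00203 over all genes and at 0.162 over the 6273 genes above a log2 CPM of 5, and the groups have 2 libraries each. Of 675 list counts under the alternatives 64 moved by over 1.5 times, and of 675 list medians 33 had the opposite sign, in the lists for integrins, proteases, actin, G1 regulators, apoptosis, NF-kB, NRF2, metallothioneins, nuclear-retained RNAs, SWI/SNF and rhabdoid markers. Among the called genes named by the stated rules, none changed direction under an alternative. Uncalled genes were not compared for direction unless an alternative called them. Some uncalled genes, among them MT-ND2, ACTG1 and RPS24, were called under an alternative, in the direction of the main fit.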

Other observations

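Gene families outside the lists were sorted by symbol after values had been seen, so they are described without a test. Over all genes tested 14.8% were called higher on day 2 and 16.5% lower. Of 36 proteasome subunit genes 18 were called higher and 1 lower, with PSMD12 at 136 and 131 CPM on day 2, against 103 and 103 CPM on day 1. Of 76 mitochondrial ribosomal protein genes 31 were higher and 4 lower, of 23 mitochondrial import genes 13 and 3, of 30 RNA polymerase subunit genes 14 and none, of 19 nucleoporin genes 15 and none, and of 9 subunits of the CCT chaperonin 8 and none. TIMM21, of the inner membrane import machinery, had 54.5 and 52.9 CPM on day 2, against 37.5 and 38.4 CPM on day 1. NUP107, a nuclear pore scaffold, had 99.4 and 96.7 CPM on day 2, against 71.5 and 77.4 CPM on day 1.

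Of 32 HOX genes 10 were called lower and none higher, with HOXA10 at 18.5 and 16.4 CPM on day 2, against 26.9 and 26.4 CPM on day 1. Of 405 genes with a ZNF symbol 65 were lower and 20 higher, a lower share near that of all genes, with a median log2 fold change of −0.07. Of 19 collagen genes 11 were lower and 1 higher, and COL4A4, a basement membrane chain, had 11.6 and 9.89 CPM on day 2, against 19.5 and 20.3 CPM on day 1. In BRD9 KO cells 13 HOX genes were lower and none higher, and 20 proteasome genes were higher and 1 lower.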
